A study of Mus musculus with 4 samples.

Results

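The growth hormone and insulin-like growth factor (IGF) axis was followed through 10 genes, taken by symbol: the ligands Igf1 and Igf2, the receptors Ghr, Igf1r and Igf2r, and the binding proteins Igfbp2, Igfbp3, Igfbp4, Igfbp5 and Igfbp7. Every probe set that the platform annotation gave to exactly 1 of these symbols was a member, which left 22 of 45037 probe sets, for 8 of the 10 genes. Igf2r was named only on a probe set shared with Airn, the noncoding RNA that overlaps it, and Igfbp7 had no listed probe set, so neither was a member. RNA came from whole inguinal mammary gland of mice at postnatal day 10, with 2 arrays from global Mt2-mmp(-/-) knockouts and 2 from Mt2-mmp(+/+) littermates. Both genotypes were on a congenic C57Bl/6J background. Mt2-mmp (gene symbol Mmp15) encodes a membrane-anchored matrix metalloproteinase. It is missing in every tissue of the knockout, not in the gland alone, and the labels name no treatment. They call the arrays of a genotype biological replicates, and do not say whether an array held RNA of a single mouse or of a pool.

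Growth hormone from the pituitary binds its receptor Ghr and, through the kinase Jak2 and the factors Stat5a and Stat5b, drives transcription of Igf1 in liver and in local stroma. Secreted IGF1 and IGF2 act on the tyrosine kinase receptor Igf1r, while Igf2r carries IGF2 to lysosomes and the binding proteins hold IGFs in the circulation and matrix until proteases release them. In the mammary gland the growth hormone receptor of the stroma and locally made IGF1 are known for their part in ductal growth.

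Values are RMA log2 expression values per probe set. RMA subtracts a background, gives all arrays the same distribution of intensities and combines a set's probes into a single value. A shift common to most genes is therefore removed, and differences of dim probe sets are compressed. Array medians ran from 5.20 to 5.21. Background was read from 23 nonspecific controls, whose medians were 3.26 to 3.28 and whose 95th percentile reached at most 4.56. Of the 22 member probe sets 1, of Igf1r, lay below that mark on every array. Bright tissue markers were present. The fat gene Fabp4 lay between 13.35 and 13.41, and the fibroblast collagen Col3a1 between 13.28 and 13.34. The luminal adhesion gene Epcam lay between 9.21 and 9.54, and the basal keratin Krt14 between 7.87 and 8.22. Not all markers were: luminal Esr1 (3.82 to 3.98) lay below the 95th percentile of the controls on every array. Pgr, also luminal, lay near that mark, at 4.45 to 4.71. Both are named after their values were seen. With 2 arrays a genotype, the number of arrays limits precision, and a permutation of them cannot give a two-sided p below 0.333, so the p-values given are those of limma fitted over all probe sets.

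For no member did the difference between knockout and wild type pass the test. Of 22 member probe sets 0 passed an adjusted p of 0.05 by limma, where 0.00444% of all probe sets did, and 0 had an unadjusted p under 0.05, where 6.65% of all did (3.48% higher and 3.17% lower in knockouts). The 2 probe sets that passed in the whole table belonged to Gadd45gip1, which encodes a mitochondrial ribosome protein, and to Prdx2, a peroxiredoxin, both lower in knockouts and named here after their values were seen. Among the members 13 lay above 0 and 9 below, with a median log2 difference of 0.021, beside -0.0012 over all probe sets. The differences ran from -0.20 for Igfbp2 to 0.16 for a probe set of Ghr. Knockout and wild-type arrays did not overlap in 5 of 22 (22.7%, against 36.4% of all probe sets), with the knockouts higher in 2 (17.8% of all) and lower in 3 (18.6% of all). No 95% interval of a member reached below 0.687-fold or above 1.40-fold, taken probe set by probe set. Because the gland was profiled in bulk, fewer cells of a type and less RNA per cell cannot be told apart.

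**Figure D1:**
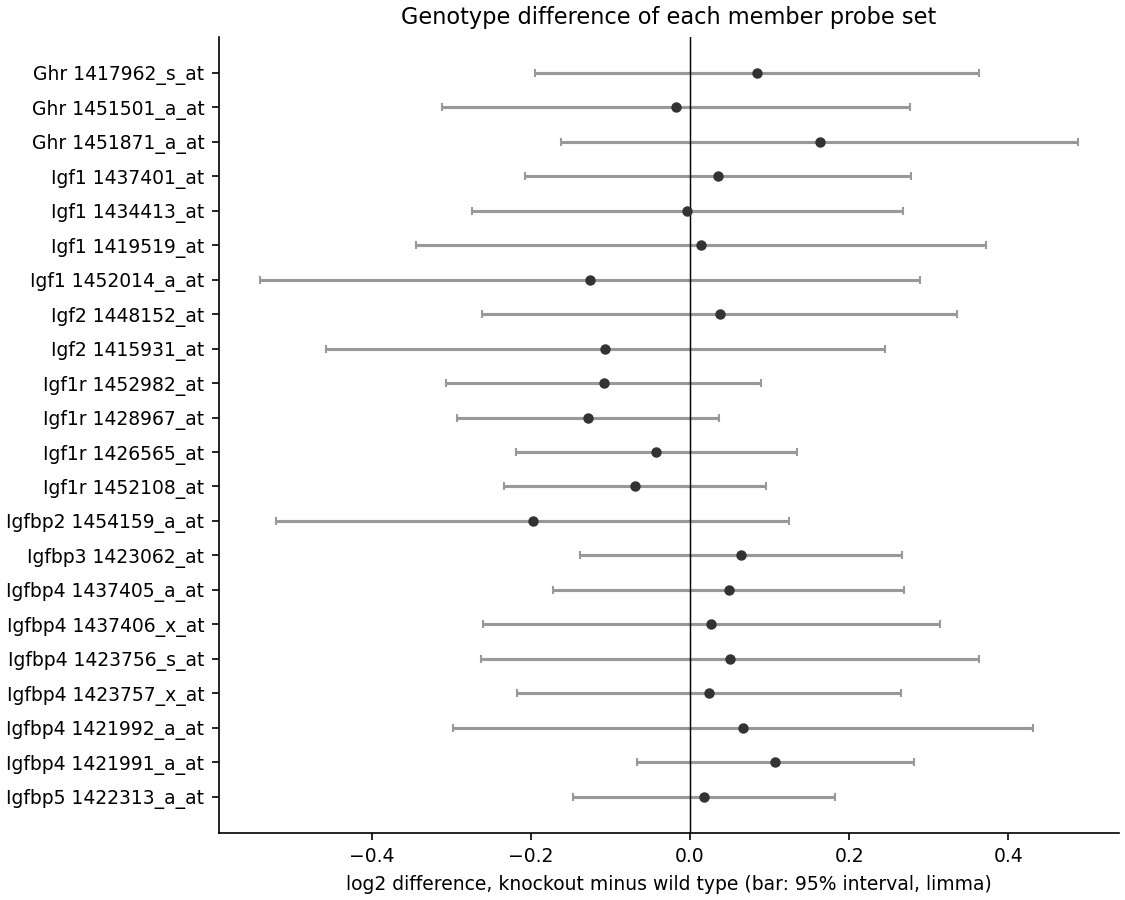
Log2 difference of knockout minus wild type (x axis) for each of the 22 member probe sets, with 95% intervals from limma (n = 2 arrays a genotype). Every interval crosses 0, and all 4 probe sets of Igf1r lie to its left.

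Among the ligands, Igf1, the growth factor that growth hormone induces, had 4 probe sets. The brightest, 1437401_PM_at, had log2 values of 11.56 and 11.72 in knockouts 1 and 2 and of 11.69 and 11.52 in wild types 1 and 2. Each genotype thus had a higher and a lower array at nearly the same levels, and the groups overlapped. The difference was 0.035 (SE 0.097, 95% interval -0.21 to 0.28, limma adjusted p = 0.984), smaller than the gap of 0.156 within the knockout pair and of 0.175 within the wild-type pair. Probe set 1434413_PM_at gave 11.48 and 11.68 in knockouts against 11.69 and 11.48 in wild types, a difference of -0.0033. The other two, 1419519_PM_at and 1452014_PM_a_at, differed by 0.014 and -0.13. All 4 probe sets repeated the same order of arrays, with knockout 2 above knockout 1 and wild type 1 above wild type 2. They share a target gene and are not separate evidence.

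Igf2, the imprinted fetal growth factor that signals through the same receptor, had 2 probe sets. The brighter, 1448152_PM_at, had log2 values of 11.87 and 12.20 in knockouts 1 and 2 and of 12.01 and 11.98 in wild types 1 and 2. The knockouts lay on either side of the wild types. Its difference was 0.037 (SE 0.119, 95% interval -0.26 to 0.34, limma adjusted p = 0.990). The dimmer set, 1415931_PM_at, read 6.49 and 6.81 in the knockout arrays and 6.62 and 6.89 in the wild-type arrays, a difference of -0.11. The gaps within the genotypes were larger, at 0.313 for the knockouts and 0.262 for the wild types.

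Ghr, the growth hormone receptor, had 3 probe sets. The brightest, 1417962_PM_s_at, had log2 values of 11.54 and 11.75 in knockouts 1 and 2 and of 11.67 and 11.46 in wild types 1 and 2, with overlapping groups. Its difference was 0.084 (SE 0.111, 95% interval -0.20 to 0.36, limma adjusted p = 0.933). Probe set 1451501_PM_a_at differed by -0.017, in the opposite direction. The dimmest, 1451871_PM_a_at, had 6.80 and 7.13 in knockouts against 6.88 and 6.72 in wild types. Its difference of 0.16 (SE 0.129, 95% interval -0.16 to 0.49, limma adjusted p = 0.855) was the highest of the members, and knockout 2 alone stood above the other arrays.

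Igf1r, the receptor through which both ligands signal, was the member gene with several probe sets that all lay lower in knockouts. As with Igf1, its 4 sets share a target gene and are not separate evidence. Probe set 1452982_PM_at had log2 values of 8.55 and 8.65 in knockouts and of 8.65 and 8.76 in wild types, so the groups were parted by only 0.0058. Probe set 1428967_PM_at had 8.41 and 8.41 in knockouts against 8.53 and 8.55 in wild types, parted by 0.118. The 2 knockout arrays agreed within 0.0016 there, and the 2 wild-type arrays within 0.018. Its difference of -0.13 (SE 0.066, 95% interval -0.29 to 0.036) was 0.915-fold and had the smallest adjusted p of any member (0.787 by limma), so it did not pass. The SE came largely from the spread of all probe sets, since limma draws a narrow spread toward the common value. The remaining sets, 1426565_PM_at and 1452108_PM_at, differed by -0.043 and -0.069, and the latter, with log2 values of 4.28 to 4.36, was the set at the level of the nonspecific controls. Knockout arrays lay below wild-type arrays without overlap in 3 of the 4 Igf1r probe sets, as in 18.6% of all probe sets, and these 3 include the set near background and the set parted by 0.0058. The probe set shared by Airn and Igf2r, which is no member, had 4.14 and 4.19 in knockouts against 4.20 and 4.21 in wild types, all below the 95th percentile of the nonspecific controls.

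Among the binding proteins, Igfbp4, an inhibitor of IGF action that the protease Pappa cleaves, had 6 probe sets. The brightest, 1437405_PM_a_at, had log2 values of 11.81 and 11.97 in knockouts 1 and 2 and of 11.89 and 11.79 in wild types 1 and 2, a difference of 0.048 (SE 0.088, 95% interval -0.17 to 0.27, limma adjusted p = 0.964). All 6 differences lay above 0, between 0.024 and 0.11, from sets that share a target gene and are not separate evidence. The highest came from the dimmest set, 1421991_PM_a_at, with 5.95 and 6.01 in knockouts against 5.85 and 5.90 in wild types. This was the sole Igfbp4 set whose groups did not overlap (limma adjusted p = 0.823). Affymetrix marks 3 of the 6 with _s or _x, as it does the brightest Ghr set, for probes that also match other transcripts.

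Igfbp3, the main carrier of IGFs in serum, had log2 values of 10.05 and 10.04 in knockouts and of 9.90 and 10.06 in wild types 1 and 2. Both knockouts lay within the wild-type range, and the difference was 0.064 (SE 0.081, limma adjusted p = 0.929). Igfbp5, which is known for its rise in the involuting gland, read 6.51 and 6.52 in the knockout arrays and 6.49 and 6.50 in the wild-type arrays. Its groups did not overlap, yet the difference was only 0.018 (95% interval -0.15 to 0.18, limma adjusted p = 0.992), or 1.01-fold. Igfbp2, which white preadipocytes are known to secrete, was at 5.16 in knockout 1 and at 5.51, 5.58 and 5.48 in knockout 2 and the wild types. Its difference of -0.20 (SE 0.129, 95% interval -0.52 to 0.12, limma adjusted p = 0.823) was the lowest of the members, and it came mainly from knockout 1: without that array it was -0.023. 

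**Figure D2:**
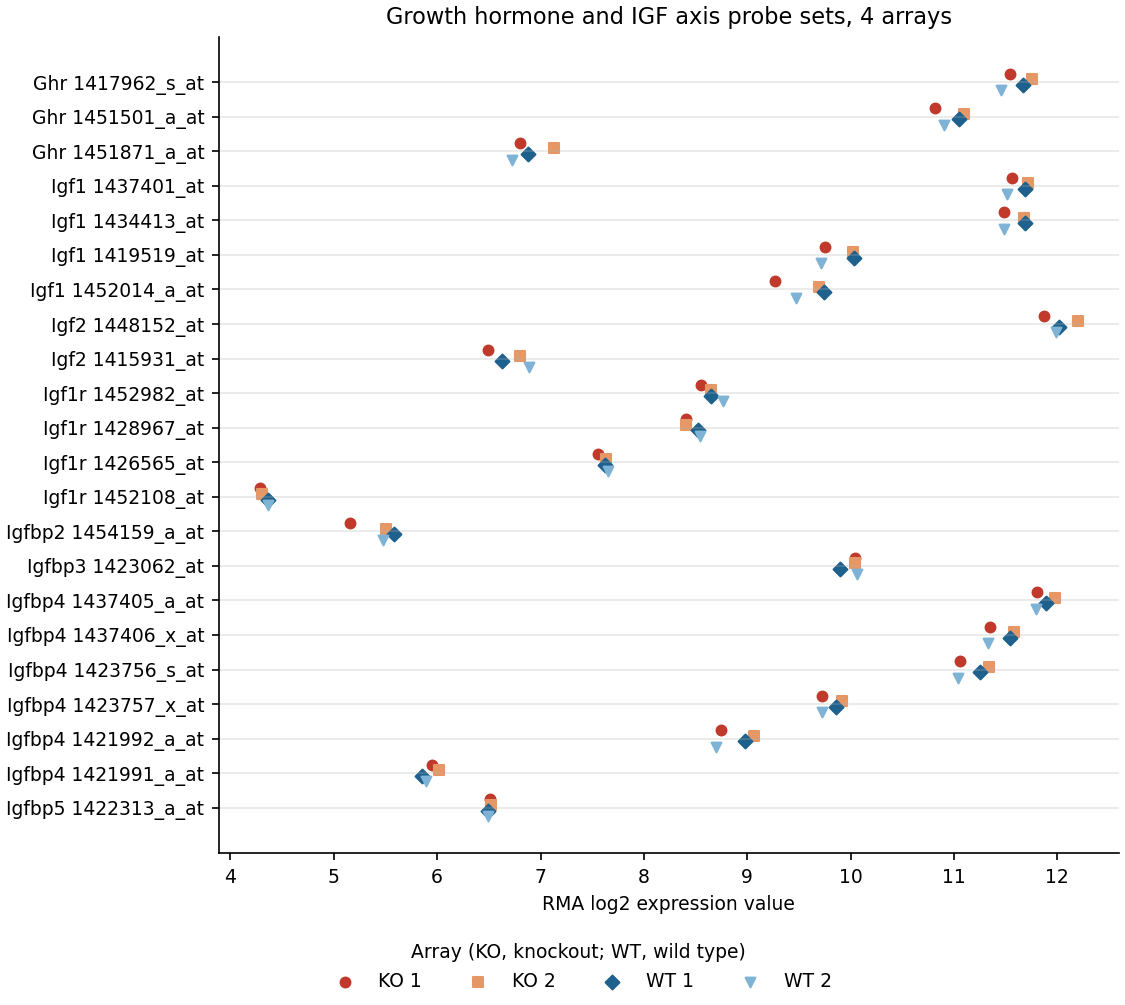
RMA log2 expression value (x axis) of each member probe set on the 4 arrays; each point is 1 array. In the rows of Ghr and Igf1, and in 5 of 6 rows of Igfbp4, knockout 2 lies right of knockout 1 and wild type 1 right of wild type 2.

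The genotype difference lay below both gaps within genotypes in 11 of 13 probe sets of Ghr, Igf1 and Igfbp4. Among the other members it did so in 1 of 9, beside 41.3% of all probe sets. Over the 22 probe sets the median absolute genotype difference was 0.057, against a median gap of 0.204 within the knockout pair and of 0.150 within the wild-type pair. Over all probe sets the same medians were 0.067, 0.089 and 0.089. In the 13 sets of Ghr, Igf1 and Igfbp4 the medians were 0.048, 0.231 and 0.204, and in the other 9 they were 0.069, 0.082 and 0.028. This grouping of genes was chosen after the order of arrays was seen. Within those 9 the gaps were not all narrow: Igf2 had 0.072, 0.320 and 0.145, and Igfbp2 0.198, 0.350 and 0.104. Igf1r ran the other way, with a median difference of 0.089 against gaps of 0.050 and 0.023, as did Igfbp5, with 0.018 against 0.010 and 0.0023. The difference lay below both gaps in 12 of 22 member sets (54.5%, against 41.3% of all), but by gene in 3 of 8 (37.5%, against 39.9% of all genes). In 14 of 22 member probe sets (63.6%) knockout 2 was above knockout 1 and wild type 1 above wild type 2, an order found in 23.4% of all probe sets. The reverse order occurred in 1 member, Igfbp3, and in 23.6% of all. Counted by gene, through the brightest probe set, the order held for 5 of 8 members (Ghr, Igf1, Igf2, Igfbp2 and Igfbp4) and for 24.8% of all genes. These shares describe the arrays, were computed after the order was seen, and carry no test.

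Some marker lists, of other tissues and of the gland's own cell types, moved with the same arrays. The 9 hair follicle and epidermis genes had mean log2 levels of 8.21 (knockout 1) and 8.03 (wild type 2), whereas knockout 2 was at 4.98 and wild type 1 at 5.13. These means were carried by 6 genes (Krt71, Krt25, Krt27, Tchh, Dsp and Perp), which were high on the arrays where Ghr, Igf1 and Igfbp4 were low. The other 3 were not: Krt10 stayed at 7.16 to 7.22, and Krt1 and Lor, markers of the outer epidermis, lay at the level of the nonspecific controls on every array. The reverse order was counted in 7 of 9 genes, the 6 above and Lor. All 9 are named after their values were seen. The skeletal muscle list (6 genes) had mean levels of 5.27 and 6.30 in knockouts 1 and 2. In wild types 1 and 2 they were 5.55 and 5.32, with 5 of 6 genes in the order of Igf1. Between knockouts 1 and 2 the rise was largest in Acta1 (4.74 to 7.39) and Myh4 (3.38 to 5.28). Myh4 on the other 3 arrays, and Tnnt3 on every array, lay at the level of the nonspecific controls. These genes are named after their values were seen. The fibroblast list (9 genes) lay between 9.91 and 10.08, with 5 of 9 in that order and 0 of 9 in reverse. The pericyte and smooth muscle list (6 genes) lay between 10.00 and 10.18, with 4 of 6. The order held in 6 of 10 endothelial (1 of 10 in reverse), 4 of 9 macrophage and 3 of 7 white fat genes. It held in 2 of 2 Schwann, 2 of 6 basal, 1 of 10 luminal, 1 of 6 lymphocyte and 0 of 6 brown and beige fat genes. In reverse were 3 of 6 basal, 3 of 10 luminal, 1 of 6 lymphocyte and 3 of 6 brown and beige fat genes. No muscle, pericyte, macrophage, white fat or Schwann gene was in reverse. Of all genes 24.8% had the order and 23.6% the reverse. The part of these tissues and cell types in the members' values was not tested.

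**Figure D3:**
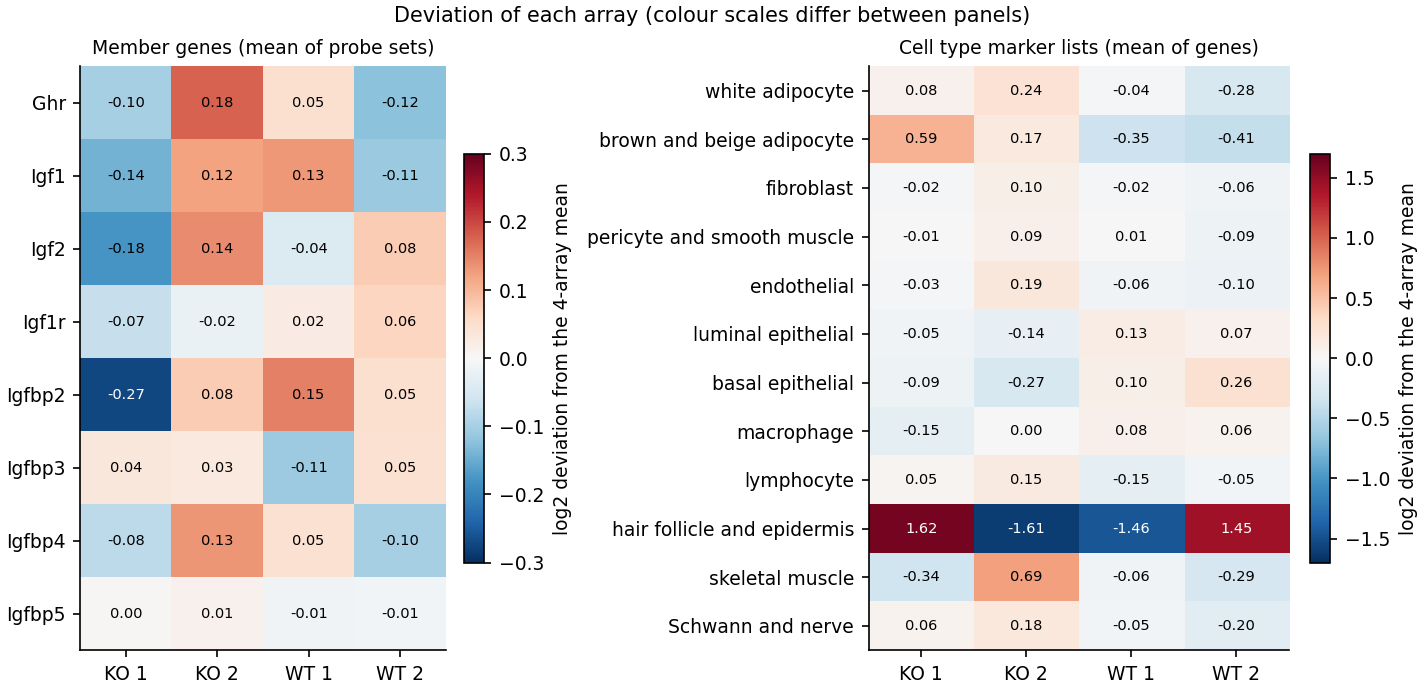
Deviation of each array from the mean of the 4 arrays, in log2 units, for the member genes (left, mean over a gene's probe sets) and the cell type marker lists (right, mean over genes); the colour scales differ. Igf1 is at -0.14 and -0.11 in knockout 1 and wild type 2, where the hair follicle and epidermis list is at 1.62 and 1.45.

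The start regions of 4 members are shown: Igf1, Ghr and Igfbp4, which shared this order of arrays, and Igf1r, which did not. Igf2 and Igfbp2 had the order in their brightest sets too, and their windows are not printed. The 4 windows therefore cannot serve as a contrast between genes with and without the order. Each line gives the 250 bases before a RefSeq transcript start on GRCm38.p6, 5′ to 3′ along the gene's strand, with GGGCGG (the core of a GC box) and TATAAA in capitals, on either strand.
Igf1: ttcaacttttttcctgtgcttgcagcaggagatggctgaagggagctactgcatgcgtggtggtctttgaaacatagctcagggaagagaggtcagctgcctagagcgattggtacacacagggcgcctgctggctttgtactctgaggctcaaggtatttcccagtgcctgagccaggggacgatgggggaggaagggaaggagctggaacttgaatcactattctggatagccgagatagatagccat
Igfbp4: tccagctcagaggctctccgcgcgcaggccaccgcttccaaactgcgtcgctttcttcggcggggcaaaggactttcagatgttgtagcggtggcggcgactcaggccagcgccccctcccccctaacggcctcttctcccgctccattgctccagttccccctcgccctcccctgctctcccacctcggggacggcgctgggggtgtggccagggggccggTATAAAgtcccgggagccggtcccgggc
Ghr: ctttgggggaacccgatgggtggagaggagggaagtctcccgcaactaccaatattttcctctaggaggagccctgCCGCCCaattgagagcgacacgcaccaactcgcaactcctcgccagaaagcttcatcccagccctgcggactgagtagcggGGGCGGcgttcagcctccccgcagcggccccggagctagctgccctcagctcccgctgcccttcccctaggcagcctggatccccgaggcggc
Igf1r: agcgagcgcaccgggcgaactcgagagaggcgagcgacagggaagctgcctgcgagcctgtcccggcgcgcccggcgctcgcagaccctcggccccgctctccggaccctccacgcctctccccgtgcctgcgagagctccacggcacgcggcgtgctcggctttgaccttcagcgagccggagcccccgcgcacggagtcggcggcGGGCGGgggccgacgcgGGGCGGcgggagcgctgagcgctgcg
The windows are chr10:87860861-87861110 (+) for Igf1, chr11:99040994-99041243 (+) for Igfbp4, chr15:3583353-3583602 (-) for Ghr and chr7:67952007-67952256 (+) for Igf1r. For Ghr a further start in the same table, chr15:3581843-3582092 (-), is not printed. That window differed from the printed one, with 8 CG dinucleotides, 0 GGGCGG and 1 TATAAA, which began 188 bases before the start. The Igf1r window held 42 CG dinucleotides and 2 GGGCGG matches, and the printed Ghr window 17 and 2. The Igfbp4 window held 22 CG dinucleotides and 1 TATAAA, which began 28 bases before the start. The Igf1 window held 5 CG dinucleotides and neither motif. Over the 32851 windows of the table the median was 6 CG dinucleotides, with GGGCGG in 32.74% and TATAAA in 12.37%. The motif bound by STAT5, searched as TTCNNNGAA, which reads the same on both strands, occurred in 0 of the 15 windows of the 10 genes and in 7.02% of all windows. A match or its lack describes only the letters of these windows.

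The other genes of the pathway were read from the same fit, through the brightest probe set of each gene. In the growth hormone signalling list 15 of 18 genes were measured, 0 passed the adjusted threshold, and 0 were higher and 2 lower at an unadjusted p under 0.05 (3.81% of all genes higher and 3.54% lower by limma). Those 2 were Socs2 and Gh. Socs2, a feedback inhibitor of the growth hormone receptor and itself a target of growth hormone, had log2 values of 8.74 and 8.72 in knockouts 1 and 2 and of 9.20 and 9.05 in wild types 1 and 2. Both knockouts lay below both wild types. The difference was -0.39 (SE 0.079, 95% interval -0.59 to -0.19, 0.761-fold, limma adjusted p = 0.697), so it did not pass, and the next brightest set, 1418507_PM_s_at, gave -0.37 (SE 0.072). The dimmer Socs2 sets, 1438470_PM_at and 1441476_PM_at, gave -0.12 and -0.0081, and the average of the gene's sets gave -0.22. Gh, the hormone itself, had log2 values of 4.17 to 4.43, below the 95th percentile of the nonspecific controls. The other genes of the list lay between -0.13 and 0.098, with Ptpn6, a phosphatase of cytokine receptors, at -0.13, Ptpn11, a phosphatase of growth factor signalling, at 0.098, and Jak2, Stat5a and Stat5b at -0.070, -0.074 and 0.028. The last 3 are named outside the rule because they carry the signal of Ghr.

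In the IGF receptor signalling list 24 of 34 genes were measured, 12 lay above 0 and 12 below, with a median of 0.0098 and 0 past the adjusted threshold. At an unadjusted p under 0.05 limma gave 1 higher and 2 lower, beside 3.81% and 3.54% of all genes. Grb14, an adaptor that inhibits the insulin receptor, had log2 values of 7.53 and 7.52 in knockouts 1 and 2 and of 6.94 and 6.49 in wild types 1 and 2. The knockouts agreed closely and both lay above the wild types. The difference was 0.81 (SE 0.151, 1.75-fold, limma adjusted p = 0.673). Irs1, the docking protein beneath Igf1r and the insulin receptor, had 10.74 and 10.85 in knockouts against 11.00 and 11.08 in wild types, a difference of -0.24 (SE 0.077, limma adjusted p = 0.727). Eif4ebp1, a brake on translation that mTOR releases, was at -0.29 (SE 0.084), and the insulin receptor Insr at -0.28 (SE 0.116). Dimmer probe sets gave -0.029 for Eif4ebp1 and -0.11 and -0.052 for Insr. In this list 10 of 24 genes had groups that did not overlap, beside 37.6% of all genes. Cell type markers parted by genotype as Socs2, Grb14 and Irs1 did: the 6 brown and beige fat genes had mean log2 levels of 9.62 and 9.20 in knockouts 1 and 2 and of 8.68 and 8.62 in wild types 1 and 2, and the 10 luminal genes of 7.41, 7.32, 7.59 and 7.54 in the same order. All 6 brown and beige genes lay above 0 and 9 of 10 luminal genes below. The 6 basal epithelial genes all lay below 0 (median -0.28, 5 of 6 without overlap), while 8 of 10 endothelial genes lay above 0 (median 0.17, 7 of 10 without overlap). The 9 macrophage genes also lay below 0, but by less (median -0.069). Their 4 of 9 without overlap was near the 37.6% of all genes. The part of these cell types in the differences was not tested.

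The remaining lists had 0 genes past the adjusted threshold by limma. The 13 partners of the binding proteins include other carriers and proteases that cut them, and their median was -0.0087. At an unadjusted p under 0.05 by limma 1 of 13 was higher and 0 lower, beside 3.81% and 3.54% of all genes. The higher gene was Htra1, a secreted serine protease, with log2 values of 10.62 and 10.68 in knockouts against 10.49 and 10.38 in wild types (difference 0.21, SE 0.076, limma adjusted p = 0.743). Adam12, a membrane protease that can cleave binding proteins, was at -0.16, Pappa2, a protease that cleaves Igfbp5, at -0.15, and the lysosomal protease Ctsd at 0.14. Of 10 measured genes of the imprinted growth network, 6 lay above 0, and Ndn, a growth-restraining imprinted gene, differed by 0.30 (SE 0.094), with 10.99 and 10.83 in knockouts against 10.68 and 10.53 in wild types. Peg3, an imprinted zinc finger gene, was at -0.14 in its brightest set, at -0.34 (SE 0.118) in 1417356_PM_at and at -0.24 with its sets averaged. The others named there were the matrix proteoglycan Dcn at 0.077 and the amino acid transporter Slc38a4 at -0.069. The 8 genes that share the binding domain had a median of 0.035, with Esm1, an endothelial secreted proteoglycan, at 0.30, Kazald1 at 0.15 and Ccn2, a matricellular protein, at -0.22. Ccn1, a matrix protein induced by serum, was at 0.46, and its log2 value of 8.59 in knockout 2 stood apart from 7.65 to 7.77 on the other arrays. The 2 measured genes that bind Igf2 mRNA, Igf2bp3 and Igf2bp1, were at -0.10 and 0.043.

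**Figure D4:**
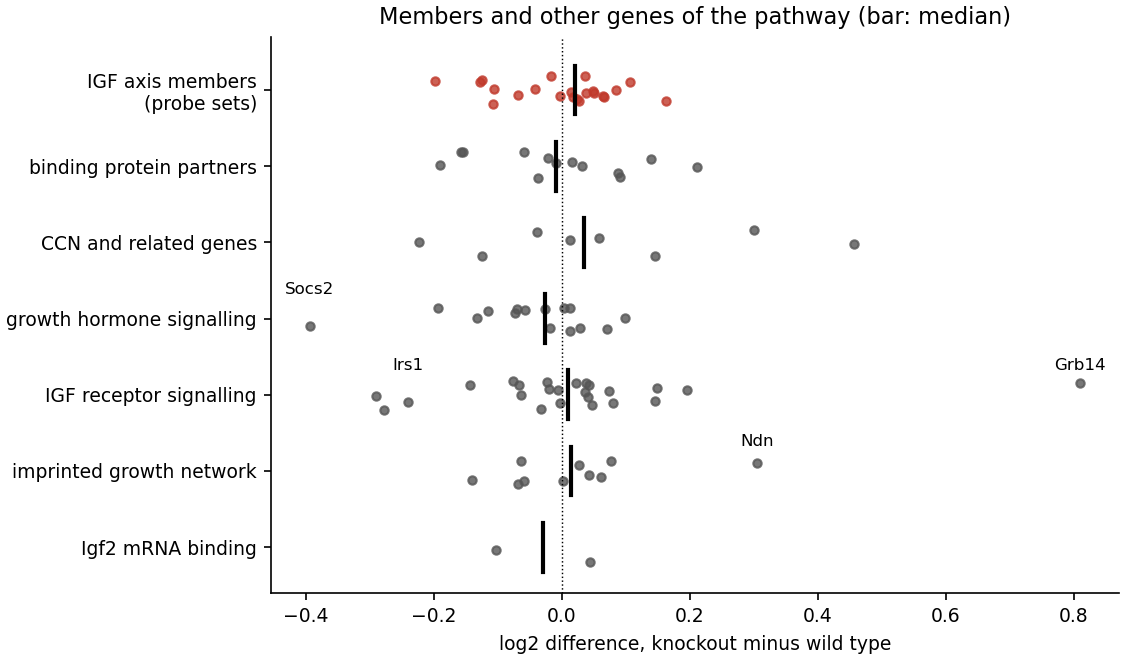
Log2 difference of knockout minus wild type (x axis) for the 22 member probe sets and for the brightest probe set of each gene in 6 pathway lists; each point is a probe set, and vertical bars mark medians. The members lie between -0.20 and 0.16, while Socs2 at -0.39 and Grb14 at 0.81 are the lowest and highest of the pathway genes.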

How the data were processed

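Biotin-labelled RNA of whole glands (200 ng of total RNA an array) was hybridized to Affymetrix 3′ IVT arrays, 2 a genotype per the labels. The authors deposited log2 values from RMA (with the package affy, as named per the labels' processing notes; tool versions: not given in the sources used here). Array controls (104 of 45141 probe sets) were left out. The platform annotation gave 1 symbol to 28898 of the rest and several to 551. All 45037 were fitted in R 4.3.3 with limma 3.58.1 (lmFit, eBayes; two-sided, no covariate, no filter; 2 residual and 3.43 prior degrees of freedom), with Benjamini-Hochberg adjustment over the whole table. The median SE was 0.0808. In lists, a gene's brightest probe set stood for it (17097 genes). Named are all members, up to 4 genes of smallest p in each pathway list, and bright markers; a name outside this rule is marked as such. Members and lists were chosen with earlier results of these data known. Deviations of same-numbered arrays correlated at -0.295 over all probe sets, so numbers were not taken as pairs. This correlation is weighted toward sets with large gaps and does not hold set by set. Knockout 2 and wild type 1 were the higher arrays in 23.4% of probe sets, and knockout 1 and wild type 2 in 23.6%. The fit was run on data simulated with independent errors and variances from its own fitted prior. That run could not show how gaps shared by many genes within a genotype affect the fit. No probe set was named Mmp15, and the targeted gene was not analysed here. Alternatives covered normalization, brightness, gene-level fits, variance priors, a replicate block, each array left out and, added after seeing the data, a crossed block.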

Additional observations from a re-analysis of the deposited data

How the results depend on the processing

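No member probe set passed under any of the 8 other settings, with any array left out, or with the crossed block, and the lowest limma adjusted p of a member was 0.687. Over all probe sets the count of 2 became 5 with quantile normalization, median centring, the brighter probe sets only, an intensity trend or robust variances, 1 with 1 probe set per gene, and 0 with probe sets averaged by gene. It ran from 0 (without knockout 1, knockout 2 or wild type 2) to 5 (without wild type 1) with an array left out, where a lone array was assumed to have the other genotype's spread. With the replicate number as a block it was 0 (3131 at an unadjusted p under 0.05 by limma), and 0 of 22 members passed. Because the deviations of same-numbered arrays correlated negatively, a crossed pairing was also tried, with 0 probe sets past the threshold (2558 unadjusted, limma). The members' median difference ran from -0.090 (without knockout 2) to 0.117 (without knockout 1), and was -0.0011 to 0.036 under the other alternatives. Of 22 member probe sets 7 kept their sign with any array left out, among them the 4 of Igf1r, and 15 did not. Of those Igf1r sets 1426565_PM_at ranged from -0.083 to -0.0018 and 1452982_PM_at from -0.16 to -0.052. Named pathway genes that kept their sign but moved by over 1.5 times with an array left out ranged from 0.030 to 0.88 (Ccn1), 0.14 to 0.46 (Esm1), -0.33 to -0.12 (Ccn2), 0.059 to 0.22 (Ctsd), -0.22 to -0.094 (Adam12), -0.24 to -0.070 (Pappa2), -0.19 to -0.078 (Ptpn6), 0.062 to 0.13 (Ptpn11), -0.40 to -0.16 (Insr), -0.21 to -0.069 (Peg3) and 0.047 to 0.11 (Dcn). With an array left out the log2 difference of the sign-changing members and named pathway genes ran for Ghr from -0.021 to 0.19 (1417962_PM_s_at), from -0.16 to 0.13 (1451501_PM_a_at), from -0.0027 to 0.33 (1451871_PM_a_at); Igf1 from -0.052 to 0.12 (1437401_PM_at), from -0.11 to 0.10 (1434413_PM_at), from -0.15 to 0.17 (1419519_PM_at), from -0.34 to 0.087 (1452014_PM_a_at); Igf2 from -0.13 to 0.20 (1448152_PM_at), from -0.26 to 0.050 (1415931_PM_at); Igfbp3 from -0.014 to 0.14 (1423062_PM_at); Igfbp4 from -0.035 to 0.13 (1437405_PM_a_at), from -0.089 to 0.14 (1437406_PM_x_at), from -0.091 to 0.19 (1423756_PM_s_at), from -0.072 to 0.12 (1423757_PM_x_at), from -0.10 to 0.23 (1421992_PM_a_at); Slc38a4 from -0.17 to 0.027 (1428111_PM_at); Igf2bp1 from -0.038 to 0.12 (1459825_PM_x_at). With probe sets averaged by gene, signs changed for Igf1 (-0.020), Igf2 (-0.034), Ptpn11 (-0.048), Slc38a4 (0.0048) and Igf2bp1 (-0.0097), and values moved by over 1.5 times for Socs2 (-0.22), Peg3 (-0.24), Insr (-0.15), Eif4ebp1 (-0.16) and Gh (-0.014). The cause of these changes was not tested. Gene-level and brighter-only fits test fewer features. The number of arrays and, for 1 Igf1r set, a signal near background limit what can be seen.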
